A study of Mus musculus with 6 samples.

Results

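Pyruvate kinase catalyses the last step of glycolysis, in which phosphoenolpyruvate and ADP give pyruvate and ATP. The 9 genes described here are the 2 pyruvate kinase genes, Pkm and Pklr, and 7 genes for RNA-binding proteins known from the literature to bear on which of a pair of Pkm exons is spliced in: Ptbp1, Ptbp2, Ptbp3, Hnrnpa1, Hnrnpa2b1, Srsf3 and Rbm4. They were picked by symbol and by known function, with earlier results of these data known, and all 9 have a row among the 23935 symbols of the deposited tables. RNA was sequenced from bone marrow-derived macrophages (BMDMs), obtained by culturing marrow with the growth factor M-CSF, of 3 PKM2FL/FL and 3 PKM2ΔMAC mice. Both genotypes carry floxed PKM2 alleles, and the PKM2ΔMAC mice also carry LysM-Cre, a recombinase expressed from the lysozyme 2 locus in macrophages, neutrophils and their precursors. The PKM2FL/FL mice were littermate controls without Cre, so there is no group without floxed alleles and no group with Cre alone. All 6 cultures were grown for 7 days and then primed for 16 h with 10 ng/mL LPS, a bacterial outer membrane component, plus 25 ng/mL IFN-γ, so no unprimed cells enter the comparison. The age of the mice that gave these cultures, and which stretch of Pkm lies between the loxP sites, are not given in the sources used here.

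The Pkm gene makes 2 main enzymes from 1 transcript by mutually exclusive splicing. PKM1, the form of adult muscle and brain, contains one of the alternative exons, and PKM2, the form of proliferating cells and activated macrophages, contains the other. The PTB proteins (Ptbp1 and its paralogs) and hnRNP A1 and A2/B1 are known to repress the PKM1 exon, SRSF3 is known to favour the PKM2 exon, and RBM4 is known to favour the PKM1 exon in differentiating muscle and nerve cells. Pklr encodes the forms of liver and red cells.

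The alternative exons are shown because the difference between PKM1 and PKM2 lies in them, and the floxed allele is named for PKM2. Pkm lies on the plus strand at chr9:59656368-59679375 (GRCm38, the assembly also called mm10, GENCODE M21), with 11 annotated transcripts. The exon of the PKM1 type (exon 9 of its transcript, chr9:59675029-59675195) and that of the PKM2 type (exon 9 of its transcript, chr9:59675568-59675734) are both 167 bases long. Read side by side, 103 of the 167 positions (61.7%) hold the same base. In the coding strand below, 5′ to 3′, capitals mark the 64 positions that differ.
PKM1-type exon: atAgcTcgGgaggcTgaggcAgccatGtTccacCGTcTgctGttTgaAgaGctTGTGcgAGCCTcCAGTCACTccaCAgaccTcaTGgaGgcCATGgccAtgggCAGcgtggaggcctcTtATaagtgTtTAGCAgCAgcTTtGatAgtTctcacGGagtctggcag
PKM2-type exon: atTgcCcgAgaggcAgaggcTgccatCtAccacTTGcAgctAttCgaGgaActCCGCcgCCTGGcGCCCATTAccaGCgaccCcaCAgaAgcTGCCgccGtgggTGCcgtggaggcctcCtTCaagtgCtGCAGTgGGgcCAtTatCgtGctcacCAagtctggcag

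PTB proteins bind pyrimidine-rich RNA with short motifs such as TCTT, and hnRNP A1 binds motifs around TAGGG, where T stands for the U of RNA. The 60 bases on either side of each exon, intronic in its 11-exon transcript, were therefore searched for these letters on both strands. In the sequences shown the capitals mark matches on the transcribed strand. The windows lie at chr9:59674969-59675028, chr9:59675196-59675255, chr9:59675508-59675567 and chr9:59675735-59675794 of GRCm38, plus strand, in the order shown. The window after the PKM1-type exon, labelled intron below, is exonic in another annotated transcript, Pkm-203. Exon 3 of Pkm-203 (chr9:59675029-59675482) starts with the PKM1-type exon and runs on through that window.
intron upstream of the PKM1-type exon: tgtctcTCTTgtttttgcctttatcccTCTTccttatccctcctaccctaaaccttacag
intron downstream of the PKM1-type exon: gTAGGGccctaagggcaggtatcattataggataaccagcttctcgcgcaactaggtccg
intron upstream of the PKM2-type exon: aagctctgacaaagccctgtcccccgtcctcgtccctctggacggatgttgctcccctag
intron downstream of the PKM2-type exon: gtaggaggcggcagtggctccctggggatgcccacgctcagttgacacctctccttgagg

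The window before the PKM1-type exon was 80.0% C or T and held 2 TCTT matches. That before the PKM2-type exon was 63.3% C or T and held 0. The single TAGGG match on the transcribed strand lay after the PKM1-type exon, in the window that is exonic in Pkm-203. It overlapped the first bases of the 5′ splice site of the PKM1-type exon. Its reverse complement was found 1 time in each window except the one after the PKM2-type exon. No match of one motif overlapped a match of the other in these windows. Among 112862 windows of 60 bases cut from 3296 transcripts of the TEC class, which are gene models awaiting experimental evidence, 32.0% held TCTT on the transcribed strand, 7.18% held it 2 or more times and 3.78% held TAGGG. On either strand the shares were 53.5% and 7.45%, and the median window was 50% C or T. These matches describe the letters and do not show binding.

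RNA counts were deposited per gene symbol, so reads of PKM1 and PKM2 are not separated in these data. Total counts lay between 49957449 and 54524651 per library. Values below are CPM, the counts scaled to a common library total by the TMM method, and a count of 0 still allows up to 0.0546 to 0.0604 CPM (3 counts, which covers counting error only). Genotypes were compared with edgeR's quasi-likelihood test over the 16516 genes that passed its filter on low counts, and a gene was called at a Benjamini-Hochberg adjusted p under 0.05. Of these genes, 68 (0.412%) were called, 47 of them higher (0.285%) and 21 lower (0.127%) in PKM2ΔMAC. The groups did not overlap for 8.9% of genes in the higher direction and 8.34% in the lower. PKM2ΔMAC replicate 2 stood apart: it held the highest value of the 6 libraries for 24.9% of the tested genes, and without it 299 of 16913 genes (1.77%) were called. The macrophage markers, among them Adgre1, Csf1r and Cd68, summed to 7134 to 7392 CPM in PKM2FL/FL and 7146 to 8062 CPM in PKM2ΔMAC libraries. Of its 8 genes 1 was called, Itgam, which rose (log2 fold change 0.43, adjusted p = 0.00272 from edgeR).

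Of the 9 genes, 8 passed the filter on low counts, and 1 of these 8, Pkm, was called between genotypes. Pkm, the targeted gene, fell in all 3 PKM2ΔMAC cultures. PKM2FL/FL replicates 1 to 3 had 1714, 1698 and 1705 CPM of it, and PKM2ΔMAC replicates 1 to 3 had 987, 1212 and 1005 CPM. The PKM2FL/FL libraries lay close together (1705 ± 8.09 CPM, SD, n = 3) and the PKM2ΔMAC libraries were more spread (1068 ± 125 CPM, SD, n = 3), with no overlap between genotypes. Against the PKM2FL/FL mean, 57.9%, 71.0% and 58.9% of the Pkm level was left in PKM2ΔMAC replicates 1, 2 and 3. The log2 fold change was -0.68 (SE 0.08, 95% interval -0.85 to -0.50, adjusted p = 0.00913 from edgeR). The two-sided exact permutation test over the 6 libraries gave p = 0.10, the smallest it can give for 3 against 3. The call was kept in DESeq2 (adjusted p = 9.34e-13). It was also kept in edgeR without PKM2ΔMAC replicate 1, 2 or 3 (adjusted p = 0.0376, 2.86e-07 and 0.0253). The call was lost when any 1 PKM2FL/FL library was left out, with adjusted p from 0.0754 to 0.0993 in edgeR. In those fits the log2 fold change was between -0.68 and -0.67. On the deposited TPM values, tested with limma, the change was -0.61 and the adjusted p was from 0.112 to 0.183. In bulk RNA, fewer cells that express a gene and less RNA of it per cell cannot be told apart.

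**Figure D1:**
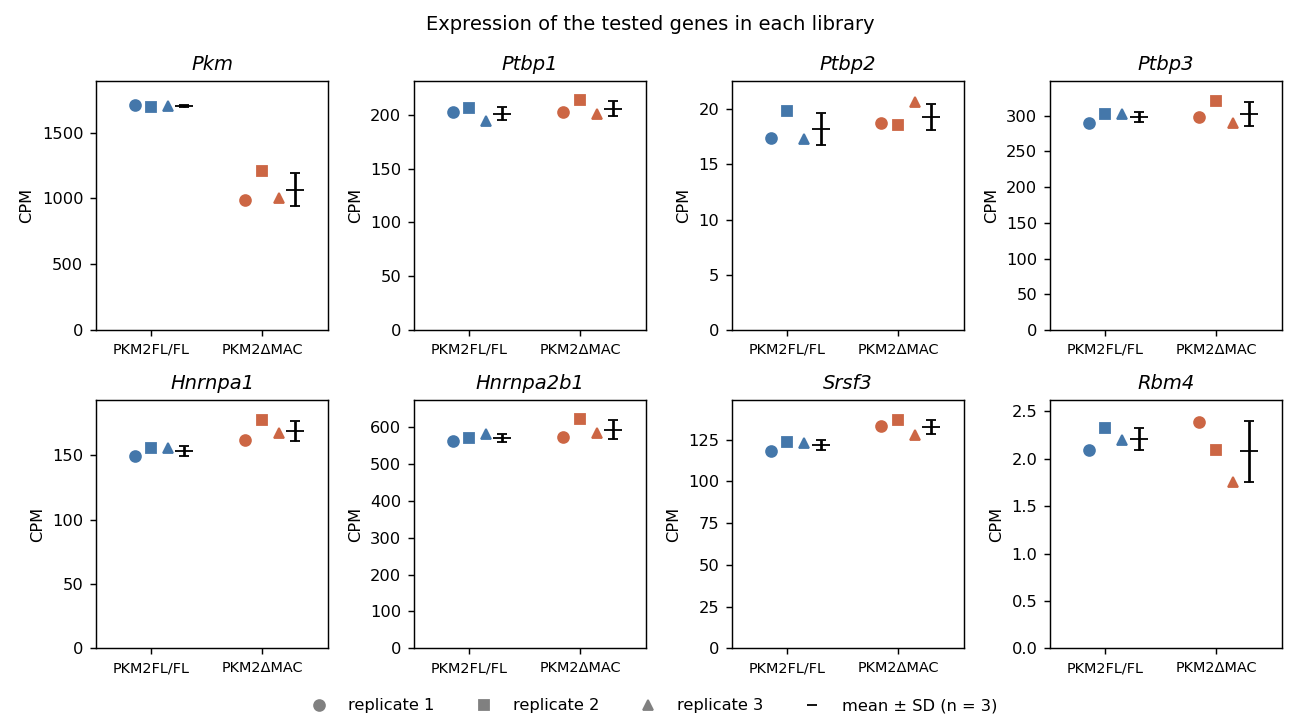
Expression of the 8 genes that passed the filter on low counts, in CPM on linear axes that start at 0, 1 panel per gene. Points are single libraries (colour marks genotype, shape marks replicate) and bars are mean ± SD (n = 3). The Pkm values of PKM2ΔMAC (987 to 1212 CPM) all lie below those of PKM2FL/FL (1698 to 1714 CPM), while Hnrnpa1 and Srsf3 lie slightly higher in PKM2ΔMAC and the other genes overlap.

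Pklr was at the limit of detection. It had 2 counts in PKM2FL/FL replicate 1, 2 counts in PKM2ΔMAC replicate 1 and 0 counts in the other 4 libraries, at or under the 3 counts that a count of 0 allows. It was not tested, and no fold is given. Its few counts lay in 1 library of each genotype, with no difference in PKM2ΔMAC that this depth could show. Of its 3236 exonic bases, 711 also lie in exons of Hcn3, a channel gene on the opposite strand with 25 to 47 counts per library.

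Since the counts do not separate exons, an annotated gene that covers both alternative exons was examined. Gm49759 is a single-exon TEC model of 3887 bases on the same strand at chr9:59672814-59676700 (GRCm38). It holds both 167-base exons whole. In all, 767 of its bases are shared with annotated Pkm exons, and the other 3120 lie in Pkm introns. It had 2824, 2577 and 2526 counts in PKM2FL/FL replicates 1 to 3, and 1139, 1463 and 1098 counts in PKM2ΔMAC replicates 1 to 3. Every PKM2ΔMAC library was below every PKM2FL/FL library. Gm49759 fell from 50.7 ± 1.87 to 23.4 ± 2.82 CPM (SD, n = 3 each). In edgeR the log2 fold change was -1.12 with an SE of 0.08 (adjusted p = 0.000631). It kept the call in each of the 15 alternative settings, with adjusted p up to 0.0329.

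The fall of Gm49759 was larger than that of Pkm in each PKM2ΔMAC library. Its counts were 3.08%, 2.92% and 2.92% of the Pkm counts in PKM2FL/FL replicates 1 to 3, and 2.17%, 2.20% and 2.20% in PKM2ΔMAC replicates 1 to 3. The ratio was thus 2.97 ± 0.0967% against 2.19 ± 0.0147% (SD, n = 3 each), without overlap. On the log2 scale it differed by -0.44 (two-sided exact permutation test, p = 0.10, the smallest possible), and by -0.45 to -0.41 when each library was left out in turn. How reads that lie on both gene models were assigned, and whether strand was used, is not given in the sources used here. The counts cannot say which bases of Gm49759 lost reads, and the part of the alternative exons in its fall was not tested. For scale, the PKM2-type exon is 6.87% of the 2432 bases of its transcript. If every Pkm count came from that whole transcript, even coverage would put 5950 to 6286 counts on the exon in PKM2FL/FL libraries. In PKM2ΔMAC libraries it would put 3425 to 4571 there. The data do not separate PKM1 from PKM2 reads or show whether the exon is intact in PKM2ΔMAC, so these are not estimates of its reads.

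**Figure D2:**
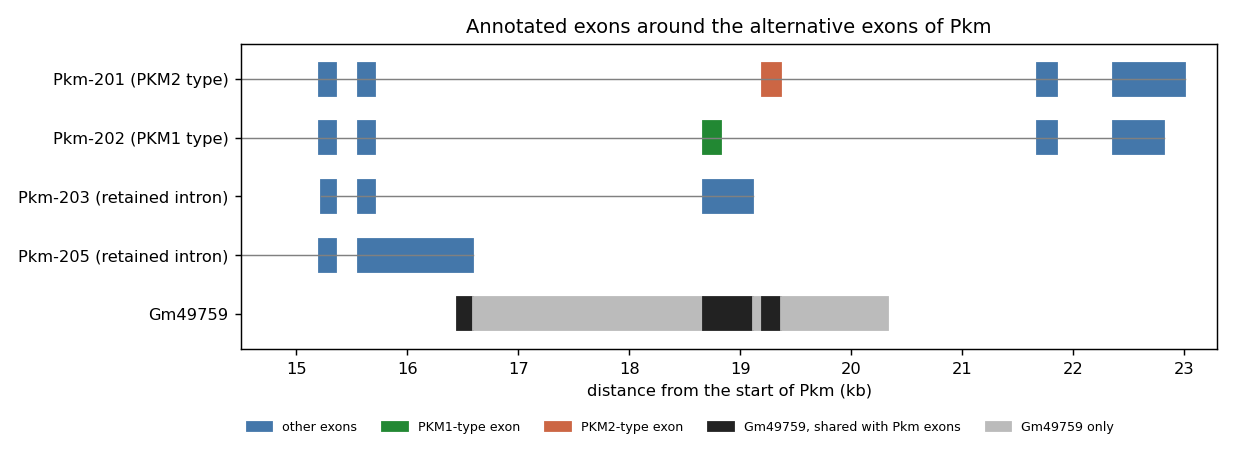
Annotated exons of 4 Pkm transcripts and of Gm49759 around the alternative exons, drawn to scale. The x axis is the distance from the start of Pkm in kb. The PKM1-type and PKM2-type exons are coloured apart, and both lie inside the 3887-base Gm49759 model, of which 767 bases are shared with Pkm exons (black) and 3120 are not (grey).

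Copies of Pkm elsewhere in the genome were also searched for. Of the 50-base words in the PKM2-type transcript, 30.5% occur without change in transcripts of other genes that do not overlap it, all of them 7 pseudogenes. Gm6560, a processed pseudogene at chr5:22724578-22726168 (GRCm38, minus strand), shares 617 of these words. PKM2FL/FL replicates 1 to 3 had 16.5, 14.7 and 14.1 CPM of it, against 8.83, 12.5 and 9.10 CPM in PKM2ΔMAC replicates 1 to 3. The groups did not overlap, and PKM2ΔMAC replicate 2 was the highest of its group, as it was for Pkm. The log2 fold change of Gm6560 was -0.57 (SE 0.14), which did not pass in edgeR (adjusted p = 0.223), passed in DESeq2 (adjusted p = 0.0148) and passed in edgeR without PKM2ΔMAC replicate 2 (adjusted p = 0.00264). Over its 15 alternative settings the adjusted p ran from 0.00264 to 0.649. Reads of the shared words could belong to either gene, how such reads were counted is not given in the sources used here, and their part in the Gm6560 values was not tested.

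**Figure D3:**
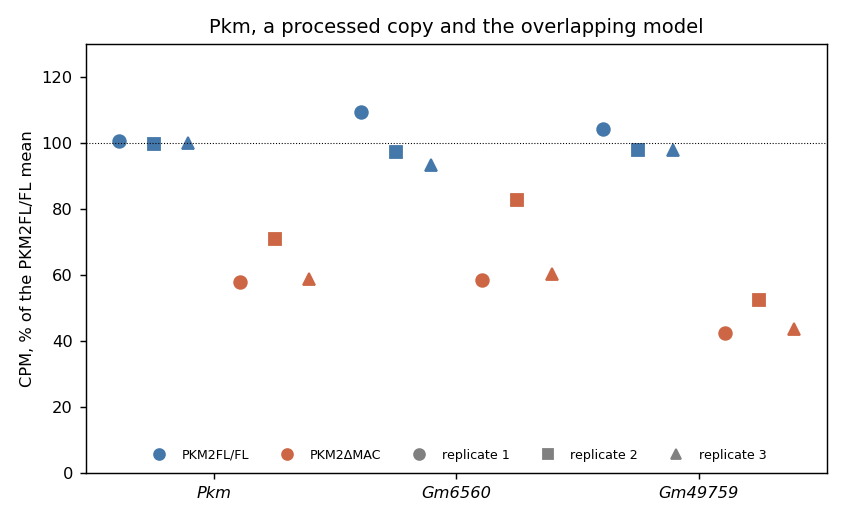
CPM of Pkm, of the processed pseudogene Gm6560 and of the overlapping model Gm49759, each as a percent of its own PKM2FL/FL mean (dotted line at 100). Points are single libraries. In PKM2ΔMAC, Pkm is at 57.9 to 71.0%, Gm6560 at 58.5 to 82.9% and Gm49759 at 42.3 to 52.5%, with replicate 2 highest for each.

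The genes whose pattern over the 6 libraries was most like that of Pkm were ranked by the root-mean-square difference in log2 CPM relative to the PKM2FL/FL mean, among 9090 genes with a mean of at least 10 CPM. The first was Gm6560 (0.115), which shares sequence with Pkm. It was followed by Eya4 (0.133), Vipr1 (0.137), Pts (0.140) and the unnamed transcript C920009B18Rik (0.141). Eya4 encodes a phosphatase and transcriptional coactivator, Vipr1 a receptor for vasoactive intestinal peptide and Pts an enzyme of tetrahydrobiopterin synthesis. Since likeness to Pkm over the same 6 libraries chose these genes, a lower level in PKM2ΔMAC was set by the choice, and their values are given as a description, with no test. The log2 fold change was -0.57 for Eya4, -0.55 for Pts, -0.56 for C920009B18Rik and -0.52 for Vipr1.

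None of the 7 splicing regulators was called between genotypes. This holds for edgeR, for limma on TPM and for DESeq2, which called 1.83% of all tested genes, and 2 of the 7 had an unadjusted p under 0.05 in edgeR, which was the case for 9.83% of all tested genes. Their log2 fold changes ran from -0.09 to 0.14 with a median of 0.06, against -0.00021 over all tested genes, and 6 of 7 were above 0, against 49.9% of all tested genes. For 5 of the 7 the highest value was that of PKM2ΔMAC replicate 2, which held for 24.9% of all tested genes. Among the 6 with a mean of at least 10 CPM, the widest 95% interval reached 0.27 on the log2 scale. On log2(TPM + 1), where the median of all genes lay 0.07 higher, the values were 0.10 for Ptbp1, 0.14 for Ptbp2, 0.09 for Ptbp3, 0.21 for Hnrnpa1, 0.13 for Hnrnpa2b1, 0.19 for Srsf3 and -0.01 for Rbm4.

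**Figure D4:**
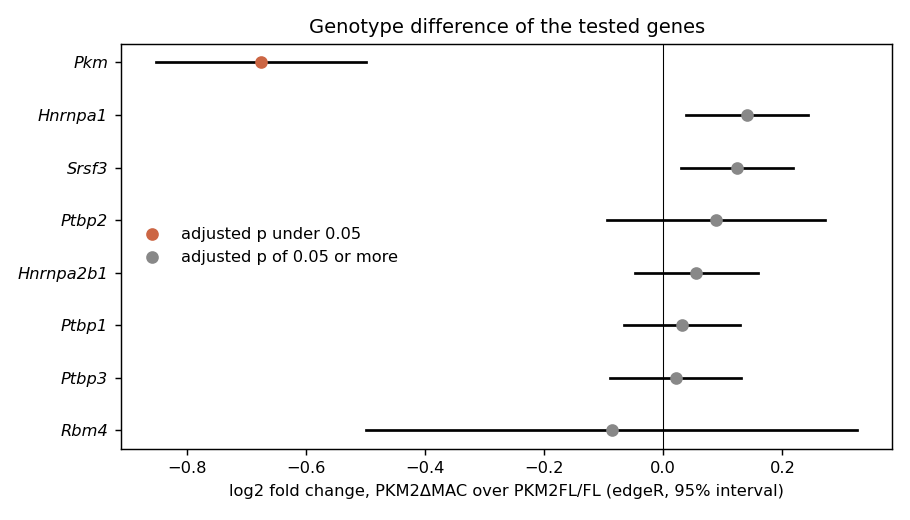
Log2 fold change of each tested gene, PKM2ΔMAC over PKM2FL/FL, from edgeR with its 95% interval (3 libraries per genotype). Pkm is at -0.68 with an adjusted p under 0.05, and the 7 splicing regulators lie between -0.09 and 0.14 with adjusted p of 0.355 or more.

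The PTB family comprises Ptbp1, the form of most tissues, Ptbp2, the form of neurons and germ cells, and Ptbp3, which is found mainly in blood-forming cells. Ptbp1 was at 203, 206 and 194 CPM in PKM2FL/FL and at 203, 213 and 201 CPM in PKM2ΔMAC replicates 1 to 3. The groups overlapped, with a log2 fold change of 0.03 (95% interval -0.07 to 0.13, adjusted p = 0.859 from edgeR), which was 0.0053 without PKM2ΔMAC replicate 2, 0.0067 without PKM2FL/FL replicate 3 and up to 0.05 without one of the others. Ptbp3 was at 290, 303 and 302 CPM in PKM2FL/FL and at 298, 321 and 289 CPM in PKM2ΔMAC. Here PKM2ΔMAC held both the highest and the lowest value. Its log2 fold change was 0.02 (95% interval -0.09 to 0.13, adjusted p = 0.931 from edgeR), and it turned to -0.02 without PKM2ΔMAC replicate 2.

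Ptbp2 was at 17.4, 19.8 and 17.3 CPM in PKM2FL/FL and at 18.8, 18.5 and 20.7 CPM in PKM2ΔMAC. The groups overlapped, and the log2 fold change was 0.09 (95% interval -0.10 to 0.27, adjusted p = 0.784 from edgeR). With single libraries left out it ran from 0.04 without PKM2ΔMAC replicate 3 to 0.16 without PKM2FL/FL replicate 2, and it was 0.06 without PKM2FL/FL replicate 1 and 0.05 without PKM2FL/FL replicate 3. Because Ptbp2 is a gene of neurons, neuron markers were looked at beside it. Summed over the 6 markers they gave 13.6 to 15.6 CPM in PKM2FL/FL and 13.1 to 16.0 CPM in PKM2ΔMAC libraries, most of it from Tubb3. That gene, the 1 neuron marker that passed the filter on low counts, was lower in PKM2ΔMAC without overlap but was not called (log2 fold change -0.20, adjusted p = 0.574 from edgeR). Single markers are named here with their values known. Snap25, a synaptic gene, had 78 and 69 counts in PKM2ΔMAC replicates 1 and 2 and 0 or 1 in the other libraries. Syt1, another synaptic gene, had 21 and 73 counts in that same pair and 0 or 2 elsewhere. PKM2ΔMAC replicate 3, with the highest Ptbp2 value, had 0 counts of both. Without that replicate 1 of the 6 neuron markers was called in edgeR, in a fit with its own filter on low counts. Over the whole table, fits with 1 library left out called from 22 to 299 genes. The part of these markers in the Ptbp2 values was not tested.

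In TPM, a unit that is scaled for gene length and so allows genes to be compared, Ptbp1 and Ptbp3 shared the PTB family nearly evenly. Ptbp1 made up 50.3 ± 1.03% of the summed TPM of the 3 PTB genes in PKM2FL/FL and 50.5 ± 0.400% in PKM2ΔMAC (SD, n = 3 each), and Ptbp3 made up 47.3 ± 1.06% and 47.1 ± 0.626%. Ptbp2 took 2.35 ± 0.140% and 2.46 ± 0.234%. The TPM of Ptbp1 was 1.02 to 1.10 times that of Ptbp3 and 18.8 to 22.6 times that of Ptbp2 in the same library. Parts of Ptbp1, on chr10:79854427-79864771 (GRCm38, plus strand), lie opposite exons of Plppr3, E130317F20Rik and Gm17134, with 983 of its 4740 exonic bases shared. The first of these had 221 to 387 counts and the second 61 to 110 counts per library, against 9885 to 11728 for Ptbp1, and neither was called.

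The hnRNP A/B genes encode abundant nuclear proteins that often silence exons. Hnrnpa1 was at 149, 155 and 155 CPM in PKM2FL/FL and at 162, 178 and 168 CPM in PKM2ΔMAC replicates 1 to 3. Every PKM2ΔMAC library was above every PKM2FL/FL library. The means were 153 ± 3.68 and 169 ± 7.93 CPM (SD, n = 3 each), with a log2 fold change of 0.14 (SE 0.05, 95% interval 0.04 to 0.24). This difference did not pass after adjustment over all genes (adjusted p = 0.355 from edgeR, between 0.247 and 0.725 over 15 alternative settings). Hnrnpa2b1 was at 560, 569 and 580 CPM in PKM2FL/FL and at 572, 621 and 582 CPM in PKM2ΔMAC. The groups overlapped, with a log2 fold change of 0.06 (95% interval -0.05 to 0.16, adjusted p = 0.757 from edgeR), which was 0.02 without PKM2ΔMAC replicate 2.

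Within the pair, Hnrnpa1 made up 36.0 ± 0.321% of the summed TPM in PKM2FL/FL and 37.4 ± 0.207% in PKM2ΔMAC (SD, n = 3 each), without overlap. Hnrnpa2b1 was the higher of the pair in every library, at 1.66 to 1.80 times the TPM of Hnrnpa1. The Hnrnpa1 values are uncertain to the extent that reads were shared, since 46.4% of the 50-base words of its longest coding transcript occur in 19 other genes, 18 of them pseudogenes. The closest was Gm10052 on chr9:123689233-123690192 (GRCm38, minus strand), at 6.66 ± 0.102 and 6.89 ± 0.360 CPM in PKM2FL/FL and PKM2ΔMAC (SD, n = 3 each), which was not called (adjusted p = 0.914 from edgeR). For Hnrnpa2b1 the share of such words was 2.44%.

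Srsf3, the smallest of the classical SR proteins, which bind exons and mostly favour their inclusion, was also slightly higher in each PKM2ΔMAC library. It was at 118, 124 and 123 CPM in PKM2FL/FL and at 133, 137 and 128 CPM in PKM2ΔMAC replicates 1 to 3. All 3 PKM2ΔMAC values were above all 3 PKM2FL/FL values. The log2 fold change was 0.12 (SE 0.04, 95% interval 0.03 to 0.22), with an adjusted p of 0.378 from edgeR and between 0.267 and 0.750 over 15 alternative settings. Of the 50-base words of the longest coding transcript of Srsf3, 31.5% occur in 5 other genes, and Gm9761, a processed pseudogene among these, was at 2.22 ± 0.358 and 2.52 ± 0.118 CPM in PKM2FL/FL and PKM2ΔMAC (SD, n = 3 each, adjusted p = 0.801 from edgeR). For both Hnrnpa1 and Srsf3 the two-sided exact permutation test gave p = 0.10, the smallest possible. A higher value without overlap was seen for 2 of the 7 regulators, a lower one for 0, and across all tested genes such a rise without overlap was found for 8.9%.

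A list of 10 markers of dividing cells was read beside these genes. All 10 of that list, among them Mki67 and Top2a, had log2 fold changes above 0, against 49.9% of all tested genes. In edgeR 0 of 10 were called, and 6 of 10 had an unadjusted p under 0.05, against 9.83% of all tested genes. DESeq2 called 2 (1.83% of all tested genes), and edgeR without PKM2ΔMAC replicate 2 called 2 (1.77%). The 10 markers summed to 491 to 506 CPM in PKM2FL/FL and to 627, 819 and 605 CPM in PKM2ΔMAC replicates 1, 2 and 3. Replicate 2 was thus the highest in these markers, as it was for Hnrnpa1, Hnrnpa2b1, Srsf3, Ptbp1 and Ptbp3. Their part in the higher Hnrnpa1 and Srsf3 values was not tested. Without PKM2ΔMAC replicate 2 the log2 fold changes were 0.11 for Hnrnpa1 (adjusted p = 0.259) and 0.10 for Srsf3 (adjusted p = 0.291), in edgeR. Neutrophil markers, such as S100a8 and S100a9, were also read. Summed over 8 genes they gave 20.3 to 48.8 CPM in PKM2FL/FL libraries and 90.0 to 170 CPM in PKM2ΔMAC libraries. Of the 8, 0 were called in edgeR and 5 had an unadjusted p under 0.05, against 9.83% of all tested genes. DESeq2 called 5, against 1.83% of all tested genes. The part of the neutrophil markers in the Pkm difference was not tested.

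Rbm4 was low. It had 112, 121 and 112 counts in PKM2FL/FL and 127, 115 and 87 counts in PKM2ΔMAC replicates 1 to 3, that is 2.10, 2.33 and 2.20 CPM against 2.39, 2.09 and 1.75 CPM. PKM2ΔMAC held the highest and the lowest value. The log2 fold change was -0.09 with a wide 95% interval, -0.50 to 0.33 (adjusted p = 0.922 from edgeR), and it turned to 0.02 without PKM2ΔMAC replicate 3. Of its 4940 exonic bases, 2990 (60.5%) also belong to Gm21992, an annotated gene on the same strand with 11 to 32 counts per library, so the row of Rbm4 may hold only part of its reads. Its paralog Rbm4b, which encodes a protein of nearly the same RNA-binding domains, was at 9.73 ± 0.435 and 10.2 ± 0.352 CPM in PKM2FL/FL and PKM2ΔMAC (SD, n = 3 each), and its TPM was 2.14 to 2.78 times that of Rbm4. With the 1950 bases that are only its own as the length, the mean TPM of Rbm4 would be 3.95 in place of 1.56, and Rbm4b would be at 0.845 to 1.10 times Rbm4, so the order of the paralogs depends on that length.

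The levels of the 9 genes spanned a wide range. In deposited TPM, Pkm was first with a mean of 991 (716 to 1205 per library), a level above 99.6% of the rows. Hnrnpa2b1 followed at 317, Hnrnpa1 at 184, Ptbp1 at 154, Ptbp3 at 145 and Srsf3 at 57.9. Ptbp2 at 7.35 and Rbm4 at 1.56 came next, and Pklr was last at 0.0137. The per-library ranges of Hnrnpa1 and Ptbp1 overlapped, as did those of Ptbp1 and Ptbp3, while the other neighbours did not overlap. Within each of the 6 libraries, Hnrnpa1 was at 1.10 to 1.26 times the TPM of Ptbp1, and Ptbp1 was above Ptbp3 by the ratio given above. The gap between Pkm and Hnrnpa2b1 was 3.87 to 4.03 times in PKM2FL/FL and 2.27 to 2.57 times in PKM2ΔMAC.

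**Figure D5:**
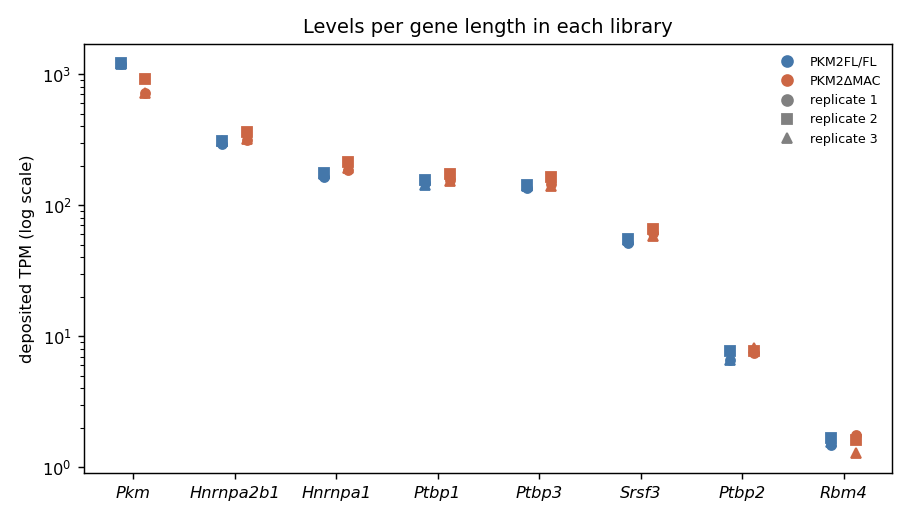
Deposited TPM of each gene in each library, on a log axis, ordered by the mean over 6 libraries. Colour marks genotype and shape marks replicate. Pkm is first (716 to 1205 TPM) and Rbm4 last of those drawn (mean 1.56 TPM). Pklr is not drawn because it is at 0 in 4 libraries.

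Other families of splicing proteins and other genes around pyruvate were read from lists written from general knowledge. Of 22 further hnRNP genes, 0 were called in edgeR (0.412% of all tested genes), and 0 in DESeq2 and in limma. An unadjusted p under 0.05 in edgeR was found for 3 of 22 (9.83% of all tested genes). Of the 22 genes, 17 were above 0 (49.9% of all tested genes) and the median log2 fold change was 0.04. They ranged from Hnrnph3, of the family that binds G-rich RNA (-0.09, and from -0.19 without PKM2ΔMAC replicate 3 to -0.02 without PKM2FL/FL replicate 2), to Hnrnpdl, a relative of AUF1 (0.12), among genes of at least 10 CPM. Of 9 further SR genes tested, 0 were called in edgeR (0.412% of all tested genes), and 0 in DESeq2 and in limma. An unadjusted p under 0.05 in edgeR was found for 1 of 9 (9.83% of all tested genes). Of the 9 genes, 8 were above 0 (49.9% of all tested genes) and the median was 0.06. Srsf1, known as SF2/ASF, had the highest value (0.12, adjusted p = 0.391), and Srsf4 the lowest (-0.06, which turned to 0.0090 on TPM and to 0.0068 without PKM2ΔMAC replicate 3). For both lists the per-library median was highest in PKM2ΔMAC replicate 2, at 0.09 above the PKM2FL/FL mean for hnRNP genes and 0.13 for SR genes, against 0.0059 and 0.03 in replicate 1 and 0.02 and 0.04 in replicate 3, in log2 CPM.

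The cofactors and paralogs of PTB and RBM4 had no call either, with 0 of 8 in edgeR (0.412% of all tested genes), in DESeq2 and in limma. An unadjusted p under 0.05 in edgeR was found for 0 of 8 (9.83% of all tested genes), and 6 of 8 were above 0 (49.9%). Among these, Elavl1, which encodes the mRNA-stabilising protein HuR, was at 0.11 (0.06 without PKM2FL/FL replicate 2) and Rbfox2, a tissue-specific splicing factor, at -0.04, which turned to 0.03 on TPM. Of 9 genes reported to regulate or bind PKM2, 0 were called in edgeR (0.412% of all tested genes), in DESeq2 and in limma. An unadjusted p under 0.05 in edgeR was found for 1 of 9 (9.83% of all tested genes). Myc, a transcription factor known to raise the expression of PTB and hnRNP A1 and A2 genes, was at 22.7 ± 2.12 and 26.8 ± 3.85 CPM in PKM2FL/FL and PKM2ΔMAC (SD, n = 3 each), with overlap (log2 fold change 0.24, adjusted p = 0.539 from edgeR, and from 0.12 without PKM2ΔMAC replicate 3 to 0.32 without PKM2ΔMAC replicate 1). Hif1a, the hypoxia factor that PKM2 is known to bind, was at 212 ± 10.2 and 201 ± 9.18 CPM, also with overlap (-0.07, adjusted p = 0.699). Its log2 fold change was -0.04 without replicate 3 of either genotype, and -0.00047 on log2(TPM + 1).

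Enzymes and carriers next to pyruvate kinase in the pathway had no call. Of 17 tested, 0 were called in edgeR (0.412% of all tested genes), in DESeq2 and in limma. An unadjusted p under 0.05 in edgeR was found for 1 of 17 (9.83% of all tested genes). Of the 17 genes, 9 were above 0 (49.9% of all tested genes) and the median was 0.0027. Eno1, the enolase that makes the substrate of pyruvate kinase, was at 750.3 ± 10.5 CPM in PKM2FL/FL cultures, against 761 ± 63.4 CPM in the PKM2ΔMAC cultures (SD, n = 3 each). Ldha, which turns pyruvate into lactate, was at 539 ± 17.9 and 532 ± 5.23 CPM. Both overlapped between genotypes, and both were named after their values were seen. By the rule used for naming, the highest was Me2, a mitochondrial malic enzyme that makes pyruvate (0.15, adjusted p = 0.406), and the lowest Pck2, which makes phosphoenolpyruvate in mitochondria (-0.07, adjusted p = 0.743, and from -0.12 without PKM2ΔMAC replicate 2 to -0.03 without PKM2ΔMAC replicate 3).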

How the data were processed

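RNA was total RNA and libraries were made with a SMARTER kit, per the labels. The submitters' processing notes name FastQC 0.12.1, Trim Galore 0.6.10, HISAT2 2.2.1, SAMtools 1.19.2, Subread 2.0.6 and the build mm10. Options, strand setting and annotation are not given in the sources used here. For each gene symbol, the authors deposited unnormalized counts and TPM values. The gene lengths implied by both tables matched exon lengths of GENCODE M21 within 0.5 base for 13352 of 13604 genes (98.15%), so positions and sequences were taken from that release. Counts were tested with edgeR 4.0.16 (R 4.3.3; filterByExpr, TMM, robust quasi-likelihood test on genotype), and SE is the absolute log2 fold change over the square root of F. Permutation tests used log2(CPM + 0.1). Alternatives were DESeq2 1.42.0, RLE factors, no filter, at least 10 counts per library, non-robust estimation, a replicate block, each library left out, and limma 3.58.1 on log2(TPM + 1) or log2(TPM + 0.1) with a mean TPM of at least 1 or no filter. The labels number the mice within each genotype, and each library was taken to come from a separate mouse. Pairs of libraries of a genotype differed by more than sampling noise (chi-square per degree of freedom 8.10 to 59.6). The functions were tested on simulated data.

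All 9 genes are named. Of the lists of splicing and pyruvate genes, those are named that were called or had the highest or lowest log2 fold change at a mean of at least 10 CPM, and so are overlapping genes and copies of at least 1 CPM and the 5 genes most like Pkm. Single marker genes, Hcn3, Gm21992 and Gm17134 fall outside this rule and were added with their values known. The members and lists were chosen with earlier results of these data known. Marker lists of erythroid cells (1.50 to 3.09 CPM summed), B cells, hepatocytes and skeletal muscle (0.866 to 1.96 CPM) were also read. B cell markers summed to 71.5 to 81.1 CPM in PKM2FL/FL and 64.4 to 112 CPM in PKM2ΔMAC libraries. Hepatocyte markers summed to at most 0.0562 CPM in PKM2FL/FL and to 1.62, 1.64 and 0 CPM in PKM2ΔMAC replicates 1 to 3. Most of this was Ttr, with 84 and 88 counts in PKM2ΔMAC replicates 1 and 2 and 0 or 1 elsewhere. Of the lists, in the order named, 2, 3, 0 and 3 genes passed the filter. edgeR called 0 of them (0.412% of all tested genes), as did DESeq2 (1.83%). Without PKM2ΔMAC replicate 2, edgeR called 1 B cell marker (1.77% of all tested genes). Without PKM2ΔMAC replicate 3 it called 1 hepatocyte marker, in a fit with its own filter on low counts.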

Additional observations from a re-analysis of the deposited data

How the results depend on the processing

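Pkm kept its direction in all 15 alternatives. Its log2 fold change was -0.61 with each of the 3 TPM settings (adjusted p 0.112 with a pseudocount of 1, 0.114 with 0.1 and 0.183 without a filter, limma), where it was not called, and from -0.78 to -0.62 with each library left out. The number of the 9 genes called was 0 with the 3 TPM settings and from 0 to 1 with each library left out, being 0 without each PKM2FL/FL library. The cause of these losses was not tested. Genes called over the whole table, 68 in edgeR, numbered 302 with DESeq2, 120 without a filter, 41 on log2(TPM + 1), 34 on log2(TPM + 0.1), 36 on log2(TPM + 1) without a filter, and from 22 to 299 with each library left out. The TPM settings moved the median of all genes by 0.07 on the log2 scale.

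For the 7 regulators, 103 of 105 alternatives gave the same direction and call, although small values moved in size. The exceptions were Ptbp3 without PKM2ΔMAC replicate 2 (-0.022, from -0.022 to 0.052 over the libraries left out) and Rbm4 without PKM2ΔMAC replicate 3 (0.021, from -0.20 to 0.021). Srsf4 turned to 0.0090 with each of the 3 TPM settings (from -0.18 to 0.0068 over the libraries left out), and Rbfox2 turned to 0.029 with a pseudocount of 1, with and without the filter, and to 0.030 with 0.1.

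With the replicate number as a block, Pkm was at -0.68 (adjusted p = 0.00855 from edgeR), 1 of the 9 genes and 82 of all genes were called, and 1 of the 8 neutrophil markers, S100a8, was called. The labels do not say that the numbers pair mice, so the block was run only as an alternative. Deviations of same-numbered libraries correlated at 0.16, 0.25 and 0.04 over 13076 genes for replicates 1, 2 and 3. Libraries of unlike number correlated at -0.21 to 0.14. PKM2ΔMAC replicate 3 correlated more with PKM2FL/FL replicate 1 (0.14) than with PKM2FL/FL replicate 3 (0.04). Every other library correlated best with its own number. Whether the numbers pair libraries was not tested.

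With 3 libraries per genotype, the spread between libraries of a genotype limits differences of the size seen for Hnrnpa1 and Srsf3. For Rbm4, with 87 to 127 counts, and Pklr, with 0 to 2, counting error is also large.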
